A study of Mus musculus with 6 samples.

Results

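Emp1, Emp2, Emp3 and Pmp22 form a small family of membrane proteins, and their transcripts were followed in neurospheres with and without added Bmi1. The 4 genes were taken by name, as the probe sets whose platform annotation names only 1 of them, out of 19938 genes with a probe set of their own. Where a gene had several such probe sets the one with the highest mean over all arrays was to be used, but each of the 4 had exactly 1, so this choice had no effect. No probe set was shared between a member and another gene. The family was proposed with the higher level of Emp1 in the Bmi1 arrays already known. The difference of Emp1 between the groups is therefore given as a description without a test, and the differences of Emp2, Emp3 and Pmp22 were tested.

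The question of the study was which genes BMI-1 controls in neural stem/progenitor cells. It used neurospheres, free-floating spheres of such cells, cultured from the lateral walls of the ventricles of outbred CD1 mice aged 4 to 6 weeks, and 6 Mouse Gene ST 1.0 arrays (Affymetrix). In 1 group (3 arrays) the cells carried the empty retroviral vector and in the other (3 arrays) the vector pCMMP-Bmi1, and both groups were sorted for the eGFP that the vector encodes and grown at clonal density with 2000 cells per well. All 6 cultures keep their own Bmi1 gene. The deposited design calls the cultures of a group independent but does not say whether they came from separate mice, and p-values here cover only the variation among these cultures, which may be technical. The labels name Bmi1 without a tag, whereas the text of the study names Bmi1-FLAG for the arrays. Groups follow the titles and the transduction and genotype fields, because the source field of the labels gives each array the name of the opposite group, and every direction below rests on the titles.

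Values are RMA values, 1 per probe set on the log2 scale, and a difference is Bmi1 overexpression minus empty vector on that scale. Array medians lay between 4.37 and 4.43 with the empty vector and between 4.44 and 4.45 with Bmi1, so every Bmi1 median was slightly higher. The correlation of 2 arrays was 0.991 to 0.993 in the same group and 0.985 to 0.987 in different groups. The probe set of Bmi1 itself read 7.70, 8.40 and 8.31 in the controls and 9.18, 8.36 and 8.42 in the Bmi1 arrays. Its difference of 0.52 had an adjusted p of 0.38 from limma, and it was 0.25 without Bmi1 replicate 1 and 0.30 without empty vector replicate 1. Bmi1 replicates 2 and 3 stood at about the level of control replicates 2 and 3. The vector carries Bmi1 cDNA, and which part of the gene this probe set covers was not examined. How far it reads RNA from the vector is therefore unknown, and the level of added Bmi1 cannot be judged from it. Of the neural stem and progenitor markers, Sox2 averaged 10.20 and 10.42, Nes 9.69 and 9.64 and Fabp7 11.89 and 12.13 with the empty vector and with Bmi1, whereas 8 of 8 microglia markers, 8 of 8 endothelial markers and 8 of 9 epithelial and choroid plexus markers had means under 5. The astrocyte marker Gfap averaged 3.39 and 3.49, and Slc1a3, another of the neural stem and progenitor markers, 10.76 and 10.46. No list of astrocyte markers other than the reactive astrocyte genes below was examined, so Gfap alone says little about astrocyte genes. A gene is said to have risen or fallen where limma gave an adjusted p under 0.05, with Benjamini-Hochberg adjustment over 35557 probe sets. In all, 794 probe sets rose and 1231 fell, and after centring each array on its median 593 rose and 1467 fell.

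The proteins of the family are small and cross the membrane 4 times, and they belong to the same superfamily as the claudins of tight junctions. PMP22 is best known as a protein of compact myelin in Schwann cells, where changes in gene dose or sequence cause inherited neuropathies, and it was also found as growth arrest-specific gene 3 in fibroblasts. EMP1, EMP2 and EMP3 occur in many epithelia and other tissues, EMP2 has been described as a partner of integrins, and EMP3 has been studied in gliomas. BMI-1 is a subunit of Polycomb repressive complex 1, which is found at CpG-rich promoters.

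For that reason the sequence around the annotated transcript starts is shown first, with every CpG in capitals. Each window holds 250 bases before and 50 bases after a start, on the strand of the gene, from RefSeq on GRCm38.p6. The table holds 9 windows for the 4 genes, 2 for Emp1, 1 for Emp2, 2 for Emp3 and 4 for Pmp22. Below is, for the 3 genes whose groups did not overlap, the window with the most CpGs, at chr6:135362681-135362980 (plus strand) for Emp1, chr16:10313919-10314218 (minus strand) for Emp2 and chr11:63132553-63132852 (plus strand) for Pmp22.
Emp1: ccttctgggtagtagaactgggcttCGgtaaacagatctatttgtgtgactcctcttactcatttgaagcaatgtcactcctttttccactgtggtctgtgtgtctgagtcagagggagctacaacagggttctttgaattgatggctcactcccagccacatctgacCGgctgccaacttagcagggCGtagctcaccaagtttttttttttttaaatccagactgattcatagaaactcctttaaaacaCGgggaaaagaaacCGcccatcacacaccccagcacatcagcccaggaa
Emp2: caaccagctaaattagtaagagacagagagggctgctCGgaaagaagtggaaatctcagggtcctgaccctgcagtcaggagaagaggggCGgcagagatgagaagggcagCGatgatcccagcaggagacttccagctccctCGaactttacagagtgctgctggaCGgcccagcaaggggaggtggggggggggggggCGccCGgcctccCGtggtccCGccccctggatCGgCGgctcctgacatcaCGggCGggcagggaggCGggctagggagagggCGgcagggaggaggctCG
Pmp22: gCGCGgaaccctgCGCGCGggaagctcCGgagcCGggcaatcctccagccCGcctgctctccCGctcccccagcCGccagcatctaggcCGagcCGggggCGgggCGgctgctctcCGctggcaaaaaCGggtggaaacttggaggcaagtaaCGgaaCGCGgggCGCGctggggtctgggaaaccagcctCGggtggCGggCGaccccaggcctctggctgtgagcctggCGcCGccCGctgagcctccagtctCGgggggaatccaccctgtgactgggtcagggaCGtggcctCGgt

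The window of Emp1 shown held 5 CpGs and its other window held 3. Those of Emp3 held 4 and 2. The window of Emp2 held 16, and the windows of Pmp22 held 3, 18, 20 and 30. Over all 32851 windows of this length the median was 7 CpGs and the quartiles were 3 and 20. Emp1 and Emp3 thus lay below the median at every annotated start, Emp2 lay above it, and Pmp22 had starts of both kinds. The motif TGANTCA, with any base at its centre, is a looser form of the core recognized by AP-1 factors. In the first window of Emp1 it stood as TGAGTCA at 145 and as TGATTCA at 25 bases before the start. It stood in no other window of the 4 genes, on either strand, against 7.81% of all windows with at least 1 match of this looser form. TATAAA stood 40 bases before the first start of Emp3, against 13.6% of all windows with a match on either strand. These are matches of letters, and binding was not measured here.

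**Figure D1:**
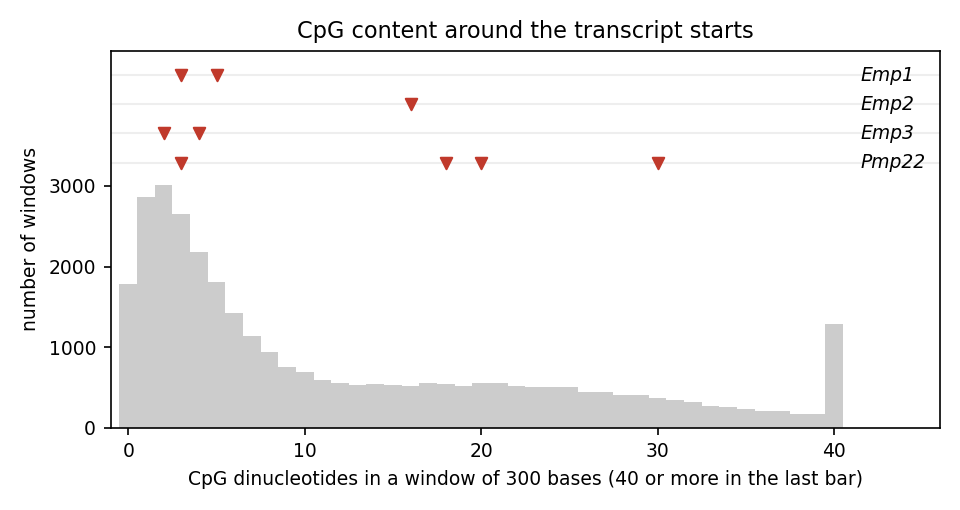
CpG dinucleotides per window of 300 bases around annotated transcript starts (x axis) and number of windows (y axis), with grey bars for all 32851 windows and red triangles for the windows of each of the 4 genes. Emp1 and Emp3 stand at 5 or fewer, Emp2 at 16, and Pmp22 at 3, 18, 20 and 30.

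The 4 genes did not move together. Emp1 was 8.09-fold higher with Bmi1, Emp2 was 1.96-fold higher without passing the test, Emp3 showed no difference beyond its spread, and Pmp22 fell 1.53-fold. Of the 3 tested members 1 passed, against 5.70% of all probe sets (2.23% rose and 3.46% fell) and 7.35% of the genes with a probe set of their own (2.98% rose and 4.37% fell). The arrays measure RNA of the whole culture, so a change in the number of cells that express a gene and a change in RNA per cell cannot be told apart.

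Emp1, also named tumor-associated membrane protein (probe set 10542355), read 3.86, 3.74 and 4.12 with the empty vector and 6.94, 6.68 and 7.15 with Bmi1. All 3 empty vector values lay below the median of their array and all 3 Bmi1 values well above it, and the groups were 2.56 apart at their closest. The means were 3.91 ± 0.19 and 6.92 ± 0.24 (SD, n = 3 each), a log2 difference of 3.02. It was the third largest positive difference of the 19938 genes. RMA compresses differences of dim probe sets, and there are no detection calls in the table, so whether Emp1 RNA was present above background in the empty vector arrays is unknown and the fold is approximate. With any 1 array left out the difference lay between 2.90 and 3.14.

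Emp2 (probe set 10437639) read 6.38, 6.39 and 6.84 with the empty vector and 7.23, 7.28 and 8.00 with Bmi1. The groups did not overlap, with 0.39 between the nearest arrays, and replicate 3 was the highest array of each group. The means were 6.54 ± 0.26 and 7.50 ± 0.43 (SD, n = 3 each), a log2 difference of 0.97 with a 95% confidence interval of 0.39 to 1.54 (standard error 0.24). Its unadjusted p was 0.0060 and its adjusted p 0.077 from limma, so that Emp2 did not pass. It did pass in fits on fewer features, which also refit the variance prior (adjusted p = 0.017 from limma with 1 probe set per gene, and 0.019 with only probe sets of mean 5 or higher). In the Bmi1 group the size of its difference rested most on replicate 3, without which it was 0.72. The adjusted p of that fit (0.098 from limma) was nevertheless the lowest of the 6 fits that left out 1 array, which reached 0.21.

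Emp3 (probe set 10563441) read 4.76, 4.81 and 4.43 with the empty vector and 4.69, 4.54 and 4.74 with Bmi1. The groups overlapped and the values stood close to the array medians. The log2 difference was -0.01 with a 95% confidence interval of -0.30 to 0.29 (adjusted p = 0.98 from limma), so a difference of either sign within that interval is not excluded.

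Pmp22 (probe set 10376950) read 8.10, 8.05 and 7.97 with the empty vector and 7.52, 7.38 and 7.38 with Bmi1. Every Bmi1 array lay below every empty vector array, with 0.45 between the nearest, and it had the smallest spread of the 4 genes. The means were 8.04 ± 0.06 and 7.43 ± 0.08 (SD, n = 3 each), a log2 difference of -0.61 with a 95% confidence interval of -0.80 to -0.43 (standard error 0.07, adjusted p = 0.0075 from limma). The fall passed without any 1 array as well (adjusted p = 0.023 to 0.041 from limma). It ranked 458 among the negative differences of the 19938 genes. Pmp22 has several annotated starts, and its 1 probe set does not tell their transcripts apart.

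The groups did not overlap for Emp1, Emp2 and Pmp22, as for 31.3% of all genes with a probe set of their own and 26.6% of all probe sets. For Emp2 and Pmp22 an exact permutation test over the 6 arrays gave p = 0.1 (two-sided), the smallest that 3 arrays against 3 allow, and for Emp3 p = 0.9.

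**Figure D2:**
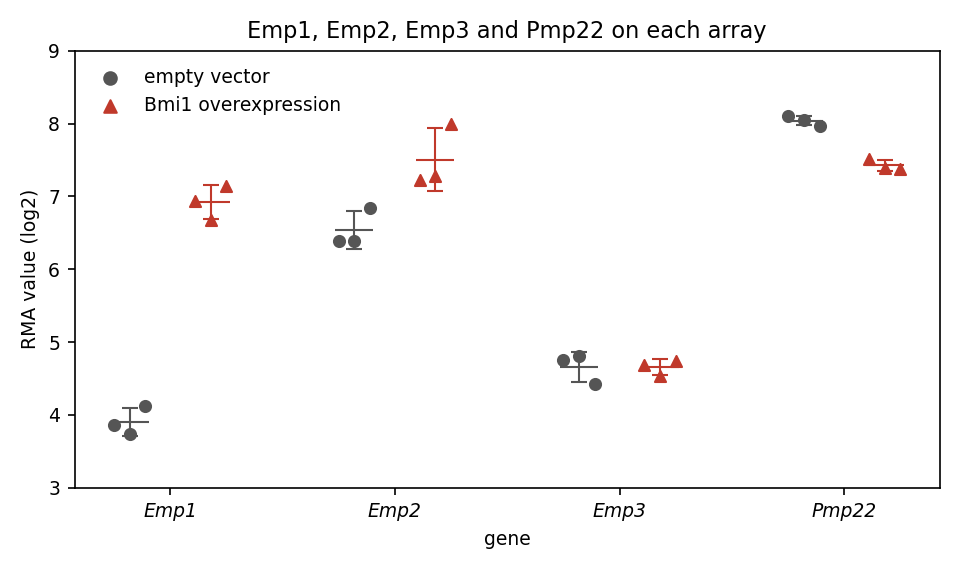
RMA values on the log2 scale (y axis) of the 4 genes (x axis), each array being 1 point (control circles, Bmi1 triangles), and the error bars giving mean and SD per group of 3. Emp1 reaches 4.12 at most in the controls and 6.68 at least with Bmi1, Emp3 overlaps, and Pmp22 is lower in all 3 Bmi1 arrays. Heights of different genes are not comparable, since probe sets differ in brightness.

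**Figure D3:**
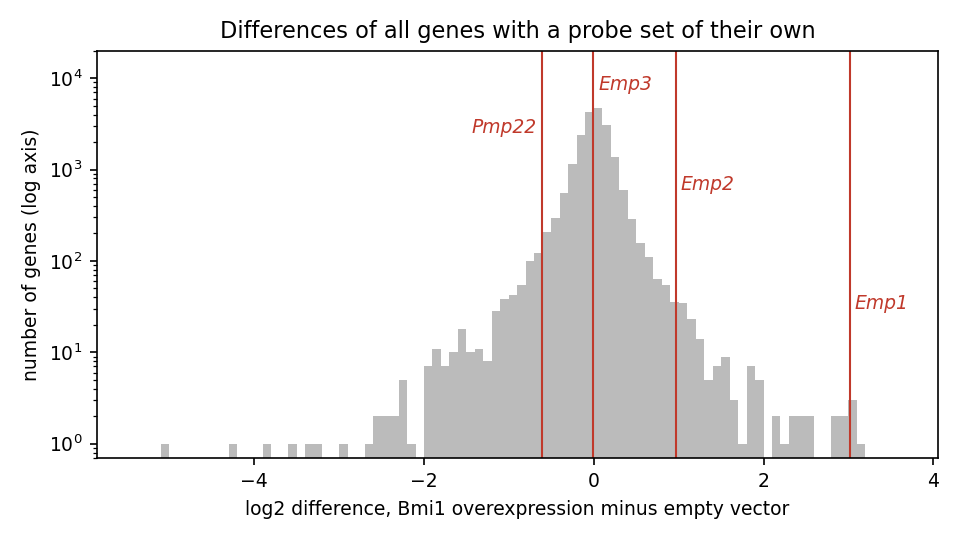
Number of genes (y axis, log scale) by log2 difference, Bmi1 overexpression minus empty vector (x axis), for 19938 genes, with red lines at the 4 family members. Emp1 (3.02) stands at the upper end, Emp2 (0.97) in the upper tail, Emp3 (-0.01) at the centre and Pmp22 (-0.61) in the lower part.

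Relatives of the family beyond these 4 genes also went in both directions. The counts of each list below stand beside 7.35% of all genes past the same test (2.98% rose and 4.37% fell). Of 11 other genes of the superfamily that are not claudins or channel subunits, 1 rose, 2 fell and 8 did not pass, with a median difference of 0.06 against 0.01 over all genes. Means were under 5 for 7 of these 11 genes. Tmem47, a claudin-like protein of cell junctions, read 9.67, 9.63 and 9.65 with the empty vector and 8.46, 8.41 and 8.56 with Bmi1, and fell by 1.17 on the log2 scale (adjusted p = 0.00073 from limma). Tmem182 fell by 1.60 (adjusted p = 0.0049 from limma), from 5.88 ± 0.16 to 4.28 ± 0.31 (SD, n = 3 each). Perp, a desmosome protein and p53 target whose name refers to PMP22, rose by 0.56 from 4.50 ± 0.04 to 5.06 ± 0.09 (SD, n = 3 each, adjusted p = 0.010 from limma). With empty vector replicate 2 left out, Perp no longer passed (adjusted p = 0.051 from limma). Lim2, the lens protein that is the other member of the closest subfamily, averaged 4.06 and 4.37 and did not pass (adjusted p = 0.10 from limma).

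Of 23 claudins measured, which seal tight junctions, none rose, 1 fell and 22 did not pass, and 20 of the 23 had means under 5. Cldn12 fell by 0.69 (adjusted p = 0.012 from limma). This call was lost without empty vector replicate 1 or 3 or Bmi1 replicate 1 (adjusted p = 0.052, 0.056 and 0.055 from limma). Of 7 Cacng genes, which encode calcium channel gamma subunits and the AMPA receptor auxiliary subunits called TARPs, 1 rose, 1 fell and 5 did not pass. Cacng4 went from 7.13 ± 0.08 to 7.64 ± 0.04 and rose by 0.51 (adjusted p = 0.012 from limma), whereas Cacng5 went from 6.64 ± 0.12 to 5.87 ± 0.17 (SD, n = 3 each) and fell by 0.77 (adjusted p = 0.015 from limma). The call of Cacng5 was lost in 4 of the 6 fits that left out 1 array, those without empty vector replicate 2 or 3 or Bmi1 replicate 2 or 3 (adjusted p up to 0.064 from limma).

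Of 15 genes whose proteins have been described as partners of the family, none rose, 3 fell and 12 did not pass, with a median of -0.06. The TGF-beta receptor gene Tgfbr2 fell by 0.82 (adjusted p = 0.0049 from limma), the tight junction scaffold Tjp1 by 0.61 (adjusted p = 0.014 from limma) and the integrin subunit Itgav by 0.60 (adjusted p = 0.011 from limma). The call of Tjp1 was lost without empty vector replicate 2 or 3 or Bmi1 replicate 2 (adjusted p = 0.057, 0.055 and 0.050 from limma), and that of Itgav without empty vector replicate 2 or 3 (adjusted p = 0.054 and 0.053 from limma). The purinergic receptor P2rx7 averaged 7.64 and 7.69, the integrin subunit Itgb1 10.34 and 10.13, caveolin gene Cav1 4.08 and 4.15 and the hyaluronan receptor Cd44 6.89 and 7.20, and none of these passed.

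Of 9 genes known to act on Pmp22 in Schwann cells, Nab2, a corepressor of EGR factors, fell by 0.43 (adjusted p = 0.020 from limma) and 8 did not pass. The call of Nab2 was lost without any array except empty vector replicate 1 (adjusted p up to 0.081 from limma). Egr2, the activator of Pmp22 in myelinating Schwann cells, averaged 6.90 and 7.30 (adjusted p = 0.24 from limma), and Sox10 averaged 4.60 and 4.76 (adjusted p = 0.57 from limma). Of 9 Schwann cell markers measured none passed, and their mean lay between 4.49 and 4.55 in the empty vector arrays and between 4.44 and 4.51 in the Bmi1 arrays. Among 8 other growth arrest-specific genes, Gas6, a ligand of TAM receptor kinases, read 6.53, 6.60 and 6.55 with the empty vector and 7.54, 7.56 and 7.57 with Bmi1, and rose by 0.99 (adjusted p = 0.00083 from limma). Gas7, a membrane-shaping protein of neurons, fell by 1.39 (adjusted p = 0.0028 from limma), and the other 6 did not pass, among them Gas1 with means of 8.41 and 8.11.

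Emp1 is also counted among the genes of the A2 type of reactive astrocytes. Of the 11 other genes of that group, 3 rose, 1 fell and 7 did not pass, with a median of 0.08. Means were under 5 for 8 of the 11, so a gene that did not pass may have been too dim to show a change. Cd109, a surface protein that binds TGF-beta, read 5.86, 6.22 and 6.06 with the empty vector and 7.73, 8.02 and 8.10 with Bmi1, a rise of 1.90 (adjusted p = 0.0012 from limma). B3gnt5, an enzyme of glycolipid synthesis, rose by 1.33 (adjusted p = 0.00067 from limma). S100a10, the partner of annexin A2, rose by 0.56 (adjusted p = 0.022 from limma), a call that was lost without any array except Bmi1 replicate 2 (adjusted p up to 0.079 from limma). Tm4sf1, also a protein with 4 membrane spans, fell by 0.80 (adjusted p = 0.0088 from limma).

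Of 13 genes shared by all reactive astrocytes, Cxcl10 rose by 0.97 (adjusted p = 0.0051 from limma), the iron oxidase gene Cp fell by 1.19 (adjusted p = 0.00083 from limma) and 11 did not pass. In this list 10 of the 13 had means under 5, and Cxcl10 itself averaged 4.08 with the empty vector and 5.05 with Bmi1. Of 13 mesenchymal glioma genes, Anxa2, a calcium-dependent membrane-binding protein, rose by 2.47 (adjusted p = 0.0019 from limma), S100a11 fell by 0.52 (adjusted p = 0.043 from limma) and 11 did not pass. Here 6 of the 13 had means under 5. The call of S100a11 was lost without any 1 array (adjusted p = 0.052 to 0.12 from limma), and its other probe set had a difference of -0.64 (adjusted p = 0.018 from limma). Timp1, in both of these lists, averaged 4.41 and 3.31 and did not pass (adjusted p = 0.080 from limma).

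**Figure D4:**
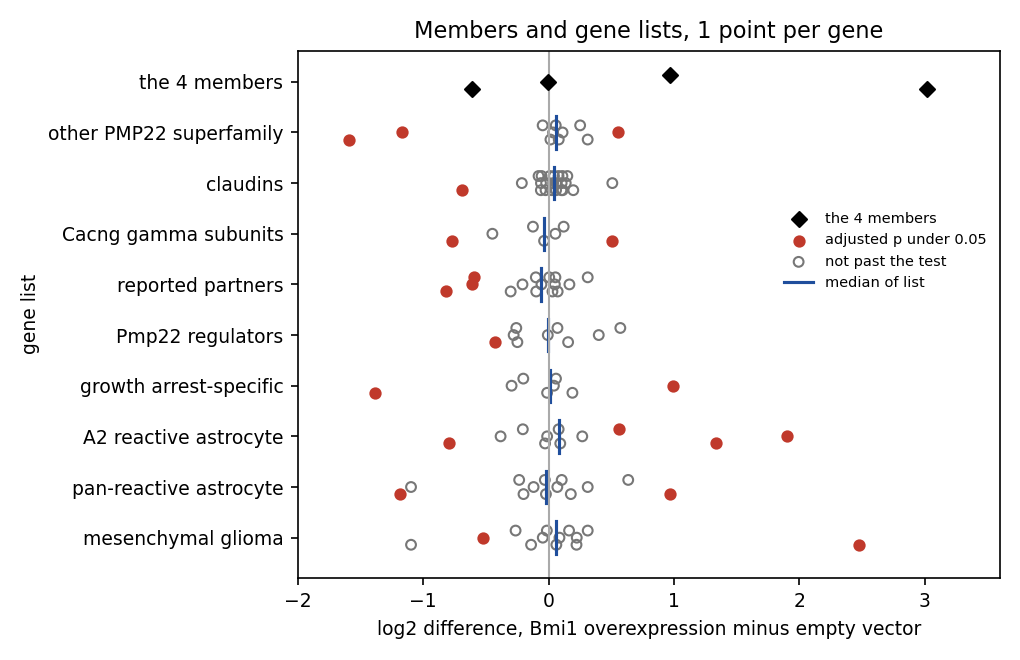
Log2 difference, Bmi1 overexpression minus empty vector (x axis), of the 4 members (black diamonds) and of the genes of each list (y axis), with filled red circles for an adjusted p under 0.05, open circles for the rest and a blue line at the median. List medians lie between -0.06 and 0.08, and the genes past the test lie on both sides of 0 in 6 of the 9 lists.

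Markers of cell types that carry these genes in other tissues were set beside the result. None of 9 epithelial and choroid plexus markers, 8 endothelial markers and 8 microglia markers passed. The mean of the epithelial list was 3.79 to 3.97 in the empty vector arrays and 3.82 to 4.00 in the Bmi1 arrays, and that of the endothelial list 4.01 to 4.08 and 4.10 to 4.12. Of 12 pericyte and fibroblast markers 2 fell and 10 did not pass. Twist1 fell by 2.40 and Pcolce fell by 1.98 (adjusted p = 0.0054 and 0.0022 from limma). The mean of that list was 4.37 to 4.43 with the empty vector and 4.07 to 4.13 with Bmi1, whereas its median difference was 0.0044, with 6 of the 12 genes higher. Of 11 neural stem and progenitor markers 3 rose (Prom1 by 1.58, Hes5 by 1.05 and Sox9 by 0.62, with adjusted p = 0.0042, 0.010 and 0.0056 from limma). Prom1 averaged 3.86 with the empty vector, below the medians of those arrays, and 5.44 with Bmi1, so the size of its rise is approximate. Hes5 did not pass the methods' t-test after Benjamini-Hochberg adjustment (adjusted p = 0.058), and neither Hes5 nor Sox9 passed with the replicate block (adjusted p = 0.068 and 0.050 from limma). The list mean was 8.89 to 8.95 with the empty vector and 9.16 to 9.29 with Bmi1. The part of such shifts in the values of Emp1, Emp2 and Pmp22 was not tested.

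The genes most like Emp1 were found by the root mean square distance between profiles over the 6 arrays, each gene centred on its own mean. The 10 nearest were Vcam1, Scrg1, Ndrg2, Fndc3c1, Ntsr2, Anxa2, Plp2, Gpc3, Vcan and Scrn1, at distances of 0.15 to 0.37 on the log2 scale. Their differences lay between 2.39 and 3.19. They include the adhesion molecule Vcam1 (5.47 and 8.66), the membrane protein Plp2 with 4 membrane spans (4.54 and 7.41), the annexin Anxa2 (4.66 and 7.14) and the proteoglycans Gpc3 (4.38 and 6.91) and Vcan (4.76 and 7.72), given as means with the empty vector and with Bmi1. Emp2 was at rank 134 from Emp1, with a distance of 1.04.

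The 10 genes nearest to Emp2 were others, at distances of 0.10 to 0.15. They were the growth factor receptor Fgfr3, the tetraspanin Cd82, the nuclear receptor Nr2f2, the Wnt inhibitor Apcdd1, Mmd2, the guidance protein Draxin, the GABA-B receptor subunit Gabbr1, Atxn1, Id2 and Mapt, the gene of tau. Fgfr3 read 8.18, 8.21 and 8.43 with the empty vector and 8.86, 8.97 and 9.54 with Bmi1, and Cd82 read 5.76, 5.48 and 5.99 and then 6.28, 6.34 and 7.15. Replicate 3 was the highest array of both groups for 10 of these 10 genes, for 3 of the 10 nearest to Emp1 and for 2196 of all 19938 genes. Emp1 and Emp2 had this order themselves, Emp3 and Pmp22 did not. The genes near Emp1 and Emp2 were picked by their profile over the same 6 arrays, so their differences are given here as descriptions. Emp2 itself had replicate 3 highest in both groups, so the choice by nearness favoured this order among its 10 nearest genes. Their 10 of 10 is therefore not a separate observation to set against the count over all genes. Anxa2 was tested above as a gene of the mesenchymal glioma list, and its nearness to Emp1 rests on the same values. Emp3 and Pmp22 spanned less than 1 over the 6 arrays and were not searched.

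**Figure D5:**
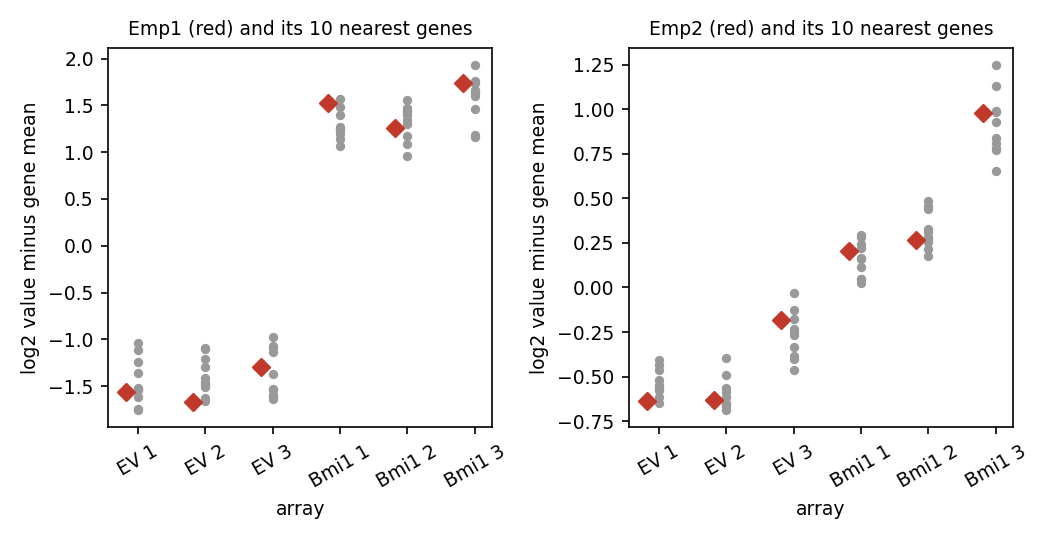
Log2 value minus the mean of the gene (y axis) on each array (x axis, EV for empty vector), for Emp1 with its 10 nearest genes and for Emp2 with its 10 nearest genes, with red diamonds for the member and grey points for the others. Around Emp1 the groups are far apart on all arrays, whereas around Emp2 replicate 3 is the highest array of each group.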

How the data were processed

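The authors measured RNA of 6 neurosphere cultures (300 ng of total RNA each), 1 per array. The deposited values are log2 expression per probe set, which the authors made by RMA with the software Affymetrix Expression Console (named in the submitters' notes on processing). Its version is not given in the sources used. RMA equalizes the arrays, so a shift of all RNA would not be seen, and it compresses dim probe sets. Depth does not apply to arrays, and 3 per group limit the precision.

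Gene names came from the annotation of the platform. All 4 members were found by Entrez identifier in the RefSeq table of GRCm38.p6. Bmi1 and control arrays were tested against each other by limma 3.58.1, run in R 4.3.3 (lmFit, eBayes, no filter, Benjamini-Hochberg adjustment over 35557 probe sets), which was tested on simulated data. Python 3.11.15 and matplotlib 3.10.9 were used for the rest.

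The members, the 15 gene lists and the tests were chosen with earlier results of these data known. Of 170 listed genes 161 had a probe set of their own. Named genes were the members, Bmi1, the 10 nearest profiles of a member spanning at least 1, and up to 6 called members per list by adjusted p. Genes named without passing (such as Lim2, P2rx7, Egr2, Gas1, Timp1, Sox2, Nes, Fabp7 and Gfap) were chosen after their values were seen. The alternatives were the methods' t-test, a filter at a mean of 5, 1 probe set or the mean of all probe sets per gene, median centring, quantile normalization, another variance prior, weights per array, a block for the replicate number and leaving out single arrays. The arrays are numbered 37 to 39 for the empty vector and 40 to 42 for Bmi1, so any effect of that order and the group cannot be told apart.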

Additional observations from a re-analysis of the deposited data

How the results depend on the processing

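The difference of Emp1 was 2.90 to 3.14 under the 16 alternatives. Pmp22 kept its direction under all 16, with -0.67 to -0.56, and passed in each but 1. Its highest adjusted p was 0.043, from limma with the replicate block. The exception was the thresholds of the methods' t-test, where its difference of -0.61 is smaller in size than the required 1. Emp2 stayed at 0.97 and passed with a filter at a mean of 5, 1 probe set per gene, the mean of all probe sets, a trended robust prior and the replicate block (adjusted p = 0.019, 0.017, 0.017, 0.049 and 0.030 from limma). The first 3 of these tested fewer features and also fitted the variance prior anew. Without 1 array it lay between 0.72 and 1.12 (adjusted p = 0.098 to 0.21 from limma). Emp3 lay between -0.13 and 0.064 without 1 array, turning sign in 3 of 6, and its probe set is not in the table filtered at a mean of 5.

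In place of 2025 probe sets, 300 passed the methods' thresholds (1377 after Benjamini-Hochberg), 3424 of 15149 the filter at a mean of 5, 3062 the trended robust prior, 850 the replicate block and 974 to 1275 the fits without 1 array. Of the 161 listed genes measured 25 passed (15.5%), against 7.35% of all genes with a probe set of their own. The lists were chosen with earlier results known, so these shares are no test of the lists. The listed genes that passed were 7 by the methods' thresholds, 38 with the probe sets of each gene averaged and 16 with the replicate block. The deviations of same-numbered arrays correlated at 3.4e-05, -0.03 and -0.02, and those of differently numbered arrays at -0.02 to 0.04. By this measure same-numbered arrays were no more alike than others. Whether same-numbered cultures shared a mouse or a preparation was not tested. With the replicate block the listed genes Perp, Cldn12, Cacng4, Cacng5, Nab2, S100a10, S100a11, Sox9 and Hes5 no longer passed (adjusted p = 0.050 to 0.13 from limma), and after Benjamini-Hochberg adjustment of the methods' t-test Cldn12, Cacng5, S100a10, S100a11 and Hes5 did not (adjusted p = 0.052 to 0.11). The cause of these moves was not tested. Dim genes, such as Emp1 with the empty vector and Emp3, are limited by signal over background, which the table does not give.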
